A study of Homo sapiens with 3 samples.

Results

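MHC class I molecules are built from a heavy chain and the light chain beta-2-microglobulin, and display peptides from inside the cell to cytotoxic T cells and natural killer cells. HLA-B and HLA-C encode classical heavy chains, HLA-E encodes a non-classical heavy chain that presents leader peptides of other class I chains to natural killer cell receptors, and B2M encodes the light chain. These 4 genes were taken by gene name from 3 lists of A-to-G positions. They are 4 of 4245 listed genes and hold 28 of 16820 listed positions, of which 17 lie in B2M, 9 in HLA-B, 1 in HLA-C and 1 in HLA-E. In myeloid cells class I is made continuously and is raised by interferon, and its transcripts are abundant.

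The study used HyperTRIBE, in which an RNA-binding protein is fused to a hyperactive catalytic domain of ADAR, an enzyme that deaminates adenosine to inosine, so that RNAs it touches read as G where they had A. The cells were THP-1, a human monocytic leukemia line, sampled as total RNA at day 7 of transduction with a pGK-GFP retrovirus made in 293T cells. The virus carried DDX41, a DEAD-box helicase, fused to the domain (DDX41-ADARcd), the domain without a partner (ADARcd alone) or neither (empty vector). Each group was 1 library, so there was no replicate error, and every test below compares the reads of libraries and not the conditions.

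In each list, every position had 1 edited read or more in the first library, and 0 among 10 or more reads in the other. A made up at least 80% of the reads in the other library. These limits were read from the lists. At a listed position the difference between the 2 libraries of that list is therefore above 0 by selection, and its test is no independent support. The editing level is the edited share of reads in percent, given with an exact Clopper-Pearson 95% interval. Where a count was 0, the floor is 3 reads of the depth. Intervals and floors cover counting error only, since PCR reads without molecular identifiers are not independent molecules. Total reads per library were not used here, so depth is given per position. DDX41 marked its own library: over 23 listed positions its reads in DDX41-ADARcd were a median of 6.93 times those in ADARcd alone, against 0.661 times over all positions of that list. Of 15 marker genes of monocytic leukemia cells, 10 had listed positions, with up to 314 reads. No listed position fell in 4 T cell, 4 B cell, 3 erythroid or 3 epithelial markers. A gene outside the lists is not shown to be absent.

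The class I sites were judged partly by their sequence, so the windows that carry the results are shown first. Each is 25 bases of a GENCODE 29 transcript on GRCh38, written 5′ to 3′ with the base at the listed position, or the base aligned to it, in capitals. The first set is the HLA-B site with most edited reads, in exon 5, beside the most similar stretch of 4 other class I transcripts. All 5 windows run across the junction of 2 exons, so the genome span also holds an intron.
HLA-B, chr6:31355207-31355324, minus strand: gagatgggagccGtcttcccagtcc
HLA-C, chr6:31270069-31270217, minus strand: gagctgggagccAtcttcccagccc
HLA-E, chr6:30491405-30491553, plus strand: gagatggaagccGgcttcccagccc
HLA-F, chr6:29725299-29725463, plus strand: gagatgggagcaGtctccccagccc
HLA-G, chr6:29829686-29829832, plus strand: gagatggaagcaGtcttccctgccc

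The reference transcripts do not all share the capital base. The HLA-B reference transcript (ENST00000412585.6) differs from the majority of reads there by G929A, counted from 1 at its 5′ end with the transcript's base first. The reads counted as edited at this site therefore carry the reference base. Of the 4 other transcripts, 3 have G at the aligned base and 1, HLA-C, has A. The HLA-C window differs from that of HLA-B at A4C, G13A and T23C, and the HLA-E window at G8A, T14G and T23C, counted from 1 at the window's 5′ end with the base of HLA-B first. Over the 15372 listed positions that a transcript covers, the reference base was A at 15361 (99.9%) and G at 11. HLA-B was 1 of these 11.

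The second set shows 2 sites of the 3′ UTR that fall at the same place of 2 paralogs, 1 listed for each transduced library.
HLA-C, listed for DDX41-ADARcd, chr6:31269134-31269158, minus strand: tgtgtgggactgAgatgcaggattt
HLA-B, listed for ADARcd alone, chr6:31354256-31354280, minus strand: tgtgagggactgAgatgcaggattt
They differ only at A5T, with the base of HLA-B first and positions counted from the window's 5′ end. The last set holds the B2M sites with 2 edited reads, the best supported of that gene.
B2M, DDX41-ADARcd, chr15:44715552-44715576, plus strand: ttgaaaaagtggAgcattcagactt
B2M, DDX41-ADARcd, chr15:44718000-44718024, plus strand: ggattattggaaAtttgttataatg
B2M, ADARcd alone, chr15:44717624-44717648, plus strand: ttggattggatgAattccaaattct
B2M, ADARcd alone, chr15:44717905-44717929, plus strand: caaagcttgttaAgatagttaagcg

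HLA-B carried the only class I site with more than 2 edited reads. At position 31355219 of chromosome 6 the edited base was in 19 of 146 reads in DDX41-ADARcd (13.0%, 8.02 to 19.6), 27 of 209 reads in ADARcd alone (12.9%, 8.69 to 18.2) and 0 of 27 reads in the empty vector (floor 11.1%). Both transduced libraries stood at the same level, and the empty-vector floor lies inside both of their intervals. The site is the 5th base of exon 5, which encodes the transmembrane part of the heavy chain. In its codon, number 300 of the reading frame, CCA and CCG encode the same amino acid. All 27 reads of the empty vector had A, and none of the reads of the 3 libraries had a base other than A and G.

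The comparison of DDX41-ADARcd with ADARcd alone asks which edits follow the DDX41 part of the fusion. At this HLA-B site the level in DDX41-ADARcd minus that in ADARcd alone was 0.095 percentage points (Newcombe 95% interval -6.81 to 7.60), with p = 1 and adjusted p = 1 by a two-sided Fisher's exact test with Benjamini-Hochberg adjustment over 9227 positions. With 146 reads, a level of 6.16% (9 reads) in DDX41-ADARcd would have given an unadjusted p under 0.05, and 1.37% (2 reads) a p as small as those called. The same test against the empty vector, which asks where editing appears at all, gave unadjusted p = 0.0467 for DDX41-ADARcd and 0.0515 for ADARcd alone, both 1 after adjustment (two-sided Fisher's exact test). Every position of those lists has 0 edited reads in the empty vector, so the direction of both tests was fixed in advance. With 27 reads in the empty vector, 68 of 209 reads (32.5%) would have been needed in ADARcd alone for a p as small as those called in that comparison.

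The site was set beside the others well supported in ADARcd alone, taken as a level of at least 5% on at least 10 edited reads. ADARcd alone had 61 such sites, and 37 of them were also listed for DDX41-ADARcd. The ratio of the level in DDX41-ADARcd to that in ADARcd alone was 1.01 at HLA-B (95% interval 0.583 to 1.74). Over the other 36 sites the median ratio was 0.108 (quartiles 0.0575 to 0.387), 34 of them had a ratio below that of HLA-B, and 20 had a 95% interval that ended below the lower bound of HLA-B. Because the sites were chosen for their level in ADARcd alone, ratios below 1 are favoured. Being listed for DDX41-ADARcd also takes at least 1 edited read there, which leaves out any site with 0 and favours higher ratios. The median and the place of HLA-B hold only for the sites kept in this way, and no test is given. Next above HLA-B came RARS, the arginyl-tRNA synthetase (1.06), and a site of the ribosomal protein-like gene RPL7L1 (1.20), the only ones above it. Next below came sites of SPN, the leukocyte sialoglycoprotein CD43 (0.821, 0.767 and 0.699). Among the 37 sites, HLA-B and RARS were the 2 with G in the reference transcript, and the other 35 had A. The part of the reference base in the result was not tested, nor whether the G reads at HLA-B come from editing.

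**Figure D1:**
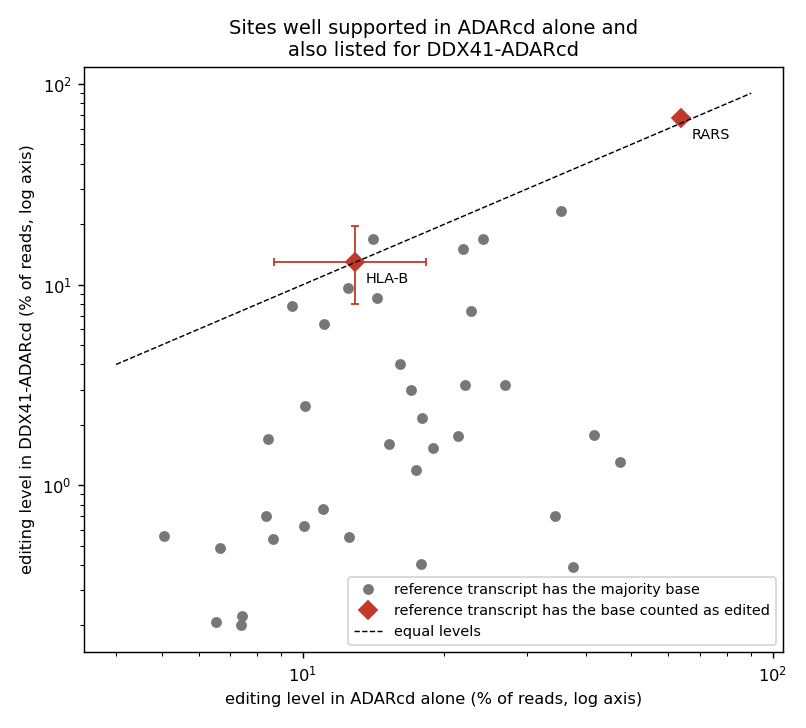
Editing level in DDX41-ADARcd (y axis, % of reads, log axis) against ADARcd alone (x axis, % of reads, log axis) at the 37 sites well supported in ADARcd alone and listed for both libraries; diamonds are the 2 sites whose reference transcript has the base counted as edited, bars at HLA-B are 95% Clopper-Pearson intervals, and the dashed line marks equal levels. HLA-B (13.0% and 12.9%) and RARS lie close to the line, and 34 of the 36 sites other than HLA-B have a lower ratio.

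The base before the HLA-B site was not one of those found at most of the other sites. ADAR enzymes favour U or A before the edited base and G after it. Of the 35 well supported shared sites with A in the reference, 30 had T or A before it. At the HLA-B site the base before was C and the base after was T. Of the sites next to it by ratio, RARS had C before and the SPN site at 0.821 had G. The RPL7L1 site at 1.20 had A, and the SPN sites at 0.767 and 0.699 had A and T. G followed the A at 55.5% of all sites of ADARcd alone with 5 or more edited reads. The part of the neighbouring bases in the HLA-B level was not tested.

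The other HLA-B sites each rested on 1 edited read. In DDX41-ADARcd there was 1 such site, at position 31356278 in exon 3, which encodes the second domain of the peptide-binding groove: 1 of 228 reads (0.439%, 0.0111 to 2.42), against 0 of 429 in ADARcd alone (floor 0.699%) and 0 of 29 in the empty vector (floor 10.3%). The difference from ADARcd alone was 0.439 points (-0.520 to 2.44; Fisher's exact test, unadjusted p = 0.347, adjusted p = 0.560). At this position 1 read in DDX41-ADARcd and 1 in ADARcd alone had another mismatch, in DDX41-ADARcd as many as were edited. The change from AAG to GAG, at codon 170, alters the amino acid. This level lies below the floors of both other libraries, so a difference was not detectable at this depth.

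ADARcd alone had 7 HLA-B sites with 1 edited read, and they spread over the domains of the protein. Exon 2, for the first groove domain, held 1 (1 of 218 reads, 0.459%), exon 3 held 2 (1 of 427 and 1 of 434 reads), exon 4, for the domain next to the membrane, held 1 (1 of 248 reads, 0.403%), exon 5 held 1 (1 of 175 reads, 0.571%) and the 3′ UTR held 2 (1 of 243 and 1 of 248 reads). Their levels ran from 0.230% to 0.571%. Those in exons 2, 3 and 4 alter the encoded amino acid and the one in exon 5 does not. One of the exon 3 positions, 31356283, had 4 reads with another mismatch beside its 1 edited read. Over the 8 sites of HLA-B there were 34 edited reads and 5 reads with other mismatches of 2202. Of the 34 edited reads, 27 came from position 31355219, which had 0 other mismatches. The 5 other mismatches thus all lie at the 7 sites with 1 edited read each. Those sites are listed because they had an edited read, while other mismatches were not selected for, so the 2 counts are not on equal terms. The position in exon 2 also lies in AL671883.2, annotated on the opposite strand. Whether the counting used strand is not stated, so reads of the 2 genes cannot be told apart.

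Class I heavy chains are near copies of each other, which bears on every value above. Of the 9 HLA-B sites, 8 had a window with at most 2 mismatches in the other 24 bases to another class I transcript. At 31356702 in exon 2 the window was identical in HLA-G, and at 31354262 in the 3′ UTR it was identical in HLA-C. How the authors placed reads that match several genes is not stated, so the part of each gene in these reads is uncertain. The class I alleles of THP-1 were not used here.

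HLA-C had 1 site, and it was listed for DDX41-ADARcd against ADARcd alone. At position 31269146 of chromosome 6, in the 3′ UTR, the edited base was in 2 of 81 reads in DDX41-ADARcd (2.47%, 0.300 to 8.64) and in 0 of 122 reads in ADARcd alone (floor 2.46%). The difference was 2.47 points (-1.07 to 8.56), with an unadjusted p = 0.158 and an adjusted p = 0.560 in Fisher's exact test. The paired HLA-B site shown above, at 31354268, had 1 of 248 reads in ADARcd alone (0.403%) and 0 of 14 in the empty vector. The 2 stretches thus carried 1 or 2 edited reads at the same base, each in a different library and in a different gene, and reads of the 2 genes differ by 1 base over this window.

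HLA-E also had 1 site, again listed for DDX41-ADARcd against ADARcd alone. In the 3′ UTR at position 30493051 of chromosome 6, 2 of 22 reads were edited in DDX41-ADARcd (9.09%, 1.12 to 29.2) and 0 of 22 in ADARcd alone (floor 13.6%), a difference of 9.09 points (-7.16 to 27.8; Fisher's exact test, unadjusted p = 0.488, adjusted p = 0.560). HLA-E had the fewest reads of the 4 genes at its position. With 1 listed A of 619 in its transcript (and 1 of 320 in HLA-C), neither gene gave a second position to compare. Neither position was in a list against the empty vector.

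B2M, the light chain, had 17 listed A of the 489 in its transcript (ENST00000558401.6), the most of the 4 genes. No B2M position was listed for both transduced libraries: 4 were listed for DDX41-ADARcd and 13 for ADARcd alone. Few positions of any gene were shared. Over all genes 402 were listed for both, of 3516 for DDX41-ADARcd against the empty vector and 6413 for ADARcd alone. The lack of shared positions is therefore not particular to B2M. All 17 B2M positions had 1 or 2 edited reads. The 4 sites of DDX41-ADARcd had levels from 0.215% to 2.22%, and the 13 of ADARcd alone from 0.117% to 0.699%, at a median of 352.5 and 647 reads.

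In DDX41-ADARcd the B2M site with the highest level lay in the 3′ UTR on chromosome 15 (position 44718012), where 2 of 90 reads were edited (2.22%, 0.270 to 7.80), against 0 of 190 in ADARcd alone (floor 1.58%) and 0 of 31 in the empty vector (floor 9.68%). The difference from ADARcd alone was 2.22 points (-0.332 to 7.74), and its unadjusted p = 0.103 was the smallest of the class I sites in that comparison (adjusted p = 0.560, Fisher's exact test). In exon 2, which encodes most of the immunoglobulin-like domain, position 44715564 had 2 of 399 reads (0.501%, 0.0608 to 1.80), against 0 of 715 (floor 0.420%) and 0 of 128 (floor 2.34%). There the difference from ADARcd alone was 0.501 points (-0.145 to 1.81; Fisher's exact test, unadjusted p = 0.128), and the change from GAG to GGG at codon 70 alters the amino acid. The last 2 positions, 44715469 and 44715637, had 1 of 306 and 1 of 465 reads, against 0 of 490 and 0 of 815 in ADARcd alone, and neither change alters the amino acid. All 4 intervals of the difference include 0.

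In ADARcd alone the 2 B2M sites with 2 edited reads were both in the 3′ UTR. Position 44717636 had 2 of 574 reads (0.348%, 0.0422 to 1.25) against 0 of 38 in the empty vector (floor 7.89%), and position 44717917 had 2 of 602 reads (0.332%, 0.0403 to 1.19) against 0 of 131 (floor 2.29%). The highest level, at 44718046, was 1 of 143 reads (0.699%, 0.0177 to 3.83) against 0 of 21 (floor 14.3%). Of the 13 sites, 7 were in the coding part of exon 2 and 6 in the 3′ UTR, and all 7 coding ones alter the amino acid. Over these positions there were 15 edited reads and 8 reads with other mismatches of 8144. Every position is listed for at least 1 edited read, while other mismatches were not selected for, so the 2 counts are not on equal terms. In the empty vector none of 1205 reads at these positions had a mismatch. Listed positions all have 0 edited reads there, and 1205 reads are few beside 8144, so this does not measure the background. In DDX41-ADARcd the 4 sites had 6 edited reads and 0 with other mismatches of 1260.

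**Figure D2:**
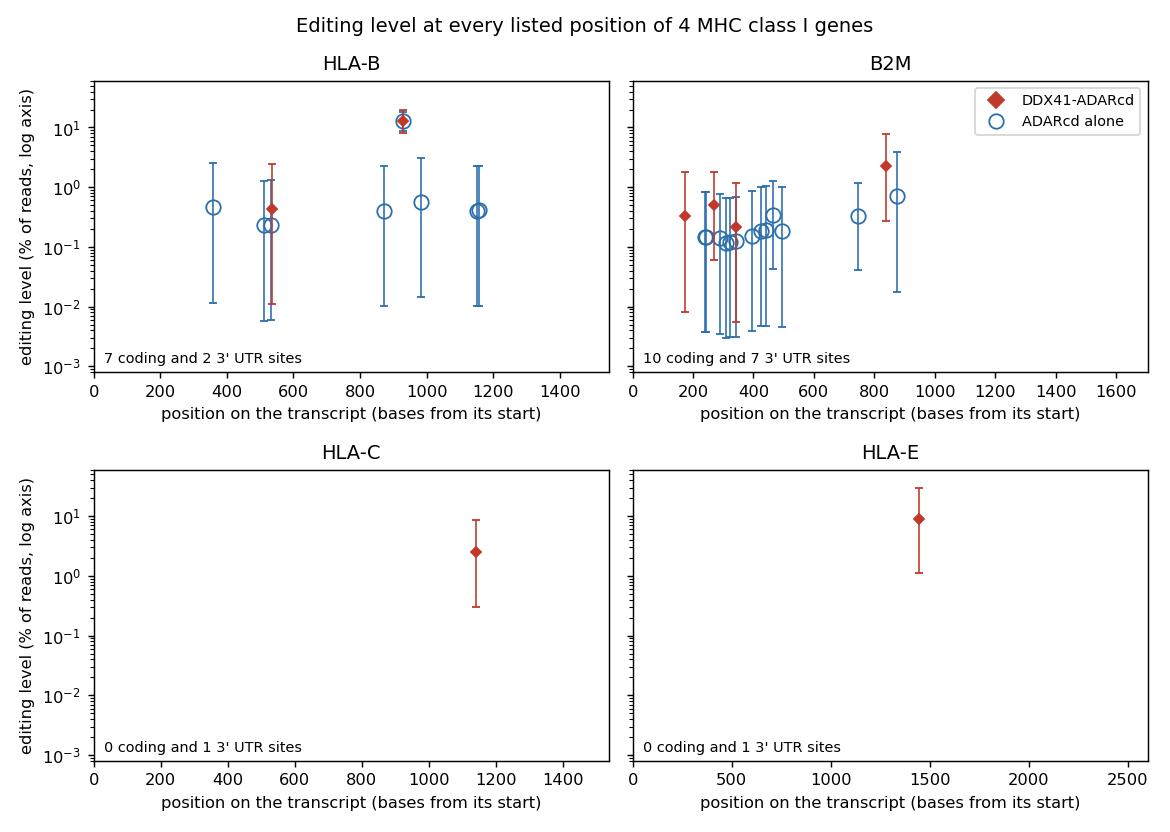
Editing level (y axis, % of reads, log axis) at every listed position of HLA-B, B2M, HLA-C and HLA-E against its place on the transcript (x axis, bases); filled diamonds are DDX41-ADARcd, open circles ADARcd alone, and bars are 95% Clopper-Pearson intervals. The exon 5 site of HLA-B, at 13.0% and 12.9%, is the only position with reads counted as edited in both libraries, and all other positions rest on 1 or 2 edited reads.

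Over the whole lists, none of the class I sites passed. Among all positions tested, 0 of 3512 (0%) were called for DDX41-ADARcd against the empty vector, 26 of 9227 (0.282%) for DDX41-ADARcd against ADARcd alone and 13 of 6412 (0.203%) for ADARcd alone against the empty vector. Of the class I sites, 0 of 6, 0 of 8 and 0 of 21 were called. At an unadjusted p under 0.05 there was 1 of 6, 0 of 8 and 0 of 21, against 3, 79 and 35 over all positions. All 26 calls of DDX41-ADARcd against ADARcd alone came from the 400 positions edited in both libraries (6.5%), of which class I held the 1 HLA-B site.

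The class I sites of ADARcd alone rested mostly on 1 edited read. Of 21 sites, 18 (85.7%, 63.7 to 97.0) had 1 edited read, against 74.8% (73.7 to 75.8) of all 6413. In the lists of DDX41-ADARcd it was 3 of 6 (50%, 11.8 to 88.2) against 81.5% of all positions with the empty vector as control, and 3 of 7 (42.9%, 9.90 to 81.6) against 83.9% with ADARcd alone as control. The same 3 sites are counted in both lists, so these are not separate results. For ADARcd alone the median level of the class I sites was 0.230% against 0.434%, at a median depth of 545 against 286 reads, and with 1 edited read it is depth that sets the level. The base before the edited A was T or A at 9 of 20 class I sites (45%), against 44.4% of all sites with 1 edited read and 79.9% of those with 5 or more. For DDX41-ADARcd against ADARcd alone it was 3 of 7, against 41.5% and 85.7%, the last over 7 sites. G followed the A at 8 of 20 class I sites of ADARcd alone (40%), against 39.1% of all sites with 1 edited read and 55.5% of those with 5 or more. These shares are descriptions with no test.

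Read depth at the class I positions differed between libraries within the range of other positions. DDX41-ADARcd had 0.564 times the reads of ADARcd alone at B2M (median of 4 positions, 0.474 to 0.624), 0.531 and 0.699 times at the HLA-B positions in exons 3 and 5, 0.664 times at HLA-C and as many at HLA-E, against a median of 0.661 over 10407 positions (5th to 95th percentile 0.340 to 1.08). ADARcd alone had 6.53 times the reads of the empty vector at B2M (13 positions, 4.60 to 15.1) and 11.7 times at HLA-B (8 positions, 6.73 to 17.7), against 8.77 over all positions (4.35 to 20.4). Within B2M the ratio was 5.74 in the coding part (5.10 to 7.61) and 12.1 in the 3′ UTR (4.60 to 15.1), so 1 gene spanned much of the range. In bulk RNA fewer cells expressing a gene and less RNA per cell cannot be told apart, and without library totals these ratios are not expression changes.

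**Figure D3:**
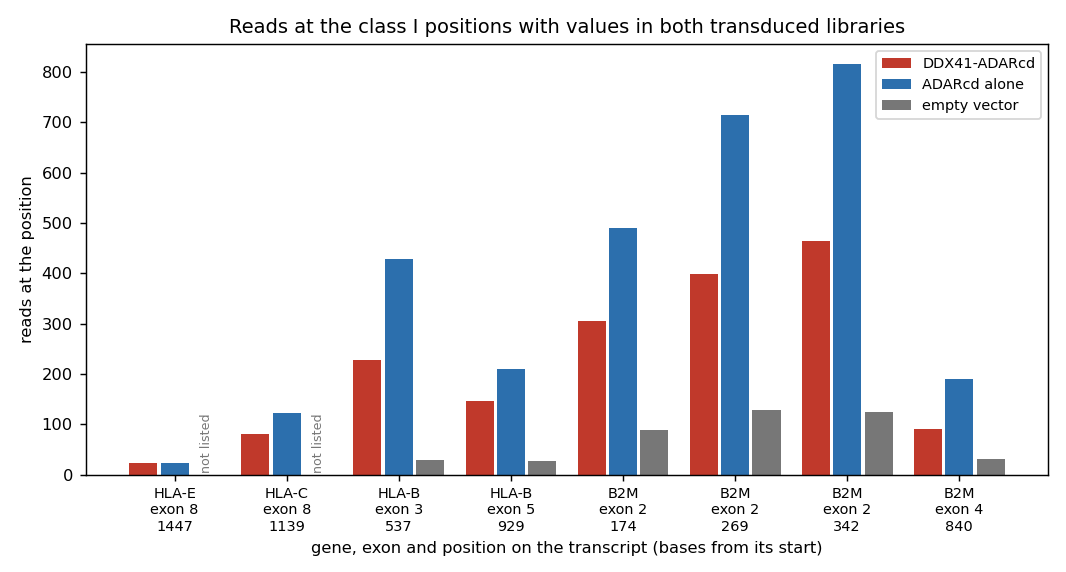
Reads (y axis) at the 8 class I positions with values in both transduced libraries, by gene, exon and place on the transcript (x axis), for DDX41-ADARcd, ADARcd alone and the empty vector (1 library each); HLA-E and HLA-C have no listed empty-vector value. DDX41-ADARcd has fewer reads than ADARcd alone at 7 positions and as many at HLA-E, and the empty vector has at most 128.

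Other genes of the pathway also had listed positions, and none of those tested was called. Of 18 genes of peptide loading and antigen processing, 4 had 38 sites for DDX41-ADARcd against the empty vector, 9 had 58 sites for DDX41-ADARcd against ADARcd alone and 9 had 87 sites for ADARcd alone, and 0 were called in each comparison. For ADARcd alone the genes with most sites were the chaperones CANX (33) and CALR (24) and TAPBP (18), which encodes tapasin, the bridge between class I and the peptide transporter. TAPBP had 6 positions listed for both libraries. At its position 33301530 the levels were 7 of 83 reads in DDX41-ADARcd (8.43%, 3.46 to 16.6) and 4 of 94 in ADARcd alone (4.26%, 1.17 to 10.5), a difference of 4.18 points (-3.34 to 12.6; Fisher's exact test, unadjusted p = 0.352, adjusted p = 0.560). At 33305161 they were 4 of 94 (4.26%) and 9 of 146 (6.16%), a difference of -1.91 points (-7.66 to 4.91; Fisher's exact test, adjusted p = 0.645). Both have A in the reference transcript.

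Of genes with class I-like products, FCGRT, the neonatal Fc receptor that also pairs with beta-2-microglobulin, had 1 site for DDX41-ADARcd against ADARcd alone and 4 for ADARcd alone, with at most 1 edited read at its best-supported ones (1 of 63 and 1 of 111 reads). MR1, which presents vitamin metabolites to T cells, had 2 sites for DDX41-ADARcd against ADARcd alone, the better supported with 2 of 19 reads (10.5%, 1.30 to 33.1). Of 17 regulators of class I transcription 6 were listed, most often NFYC, a subunit of the promoter-binding factor NF-Y, with 58 sites for DDX41-ADARcd against ADARcd alone at a median of 10 reads in DDX41-ADARcd. In that comparison 36 of the 65 positions of the regulators had enough reads in both libraries to be tested. Of 13 genes of MHC class II, the counterpart that presents outside antigens, 3 were listed: CTSS, CD74 and HLA-DRB1. None of the tested sites of these lists was called in any comparison.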

How the data were processed

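The deposited values are counts: per the file headers, reads with A, T, C and G, all reads and reads with the edited base at 1 genome position in each of 2 libraries, not normalized. The submitters' processing notes list STAR 2.5, CASAVA 1.4, FastQC 0.11.7 and mm10, a mouse build, without saying what each was for. How sites were called and filtered is not given in the sources used here. Columns carry no library name, so libraries follow the list titles. The totals were equal between lists at 402 of 402 shared positions for the empty vector and 3114 of 3114 for DDX41-ADARcd. The lists shared 0 positions for ADARcd alone, so its columns could not be checked this way. Positions were read on GRCh38 with GENCODE 29, since they fall on A of the named genes there.

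Entries that repeat a position were joined. A two-sided Fisher's exact test (scipy 1.17.1, Python 3.11.15) compared edited and other reads at positions with 10 or more reads in both libraries, with Benjamini-Hochberg adjustment over each whole comparison and a threshold of 0.05. For DDX41-ADARcd against ADARcd alone, positions edited in both were added from the other 2 lists, since the deposited one needs 0 edited reads in ADARcd alone. The test was tried on simulated reads. Windows of 25 bases were compared with the CCDS transcript of each class I gene. Named were all 4 genes, their sites that had 2 or more edited reads, lay in several lists or had the highest level, and up to 4 genes of each list with most sites. The members, lists and tests were chosen with earlier results of these data known. Alternatives were other read minimums, Bonferroni adjustment, reads halved, 2 or more edited reads, a one-sided test, every entry tested, shared positions only and, chosen after seeing the data, positions without A in the reference left out. Some results of the list of other class I heavy chain genes are not reported here.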

Additional observations from a re-analysis of the deposited data

How the results depend on the processing

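The count of class I sites called was 0 in all 25 alternatives run, a number taken over the 3 comparisons together. They include leaving out positions that have G in the reference, which was chosen after seeing the data and drops the HLA-B exon 5 site. With reads halved in both libraries that site's difference turned from 0.0950 to -0.171 points (-9.77 to 10.6; p = 1, Fisher's exact test), both far inside their intervals. Over all positions, ADARcd alone against the empty vector had 7 called positions with reads halved, against 13, and DDX41-ADARcd against ADARcd alone had 0 in the one-sided test for higher levels, against 26, because all 26 were lower. No other alternative moved a count by more than 1.5 times. No site of these genes other than HLA-B 31355219 was listed for both transduced libraries against the empty vector, so the planned comparison of further shared sites gave no value. No paired analysis was possible because each group has 1 library. Depth limits the empty vector most: at its 27 reads of the HLA-B site a level of 11.1% can go unseen.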
